A study of Mus musculus with 31 samples.

Results

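The 44 genes described here lie on mouse chromosome 6, out of 18194 genes measured, 993 of them on that chromosome. They were chosen by name with earlier results of the same arrays in view, in which the array values of the tumour lines 91, 92 and 9 were higher along chromosome 6 than those of hindbrain stem cells. The rule asks which of its genes follow that shift and which stay near the level of the stem cells. Differences between the p53 wild-type lines or their tissues and hindbrain stem cells are therefore part of the choice, and they are given as descriptions with no test. Of the 44 members, 38 were bright, meaning a mean of at least 5 on the log2 scale, and 6 were dim (Met, Tes, Cbx3, Ing4, Mitf and Golt1b).

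RNA was measured on 31 Affymetrix arrays from 27 biological samples. Neural stem cell (NSC) neurospheres came from the subventricular zone (SVZ), the IV ventricle region and the cerebellar white matter of C57BL/6 mice at postnatal day 7, with 3 cultures of each; the IV ventricle and cerebellar cultures are called hindbrain NSC. Cancer stem cell (CSC) lines came from medulloblastomas of Ptch het mice with wild-type p53 (8 lines: 9, 49, 68, 74, 77, 83, 91 and 92), and a matched tissue was measured for each. Medulloblastomas of Ptch het p53 het mice gave CSC from 2 tumours, 27 and B, each measured on 3 technical arrays that were averaged. All tumours carry the Ptch mutation, the labelled strain is C57BL/6 throughout, NSC and CSC were grown as neurospheres with EGF and FGF2, each line is a single culture, and the age of the tumour-bearing mice is not given in the sources used here. Values are log2 intensities, so a difference of 0.3 is 1.23-fold, and a probe set's level says nothing about the level of another gene.

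When a cell gains or loses a whole chromosome, the RNA of most of its genes tends to move with the number of gene copies. Some genes depart from that, because their own regulation sets the level or because feedback restrains it, and subunits of protein complexes are often adjusted only at the protein level, which arrays do not see. Mouse chromosome 6 carries receptor and kinase genes such as Met and Braf, the caveolin pair, and many household genes of membrane traffic, ubiquitin handling and mitochondria. Medulloblastoma in Ptch het mice arises from the granule neuron lineage of the cerebellum, in which Ptch1 normally restrains Sonic hedgehog signalling. DNA copy number was not measured in these samples, so no statement on the number of copies of chromosome 6 can be made. For orientation, the log2 of 3 over 2 is 0.58.

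Cultures expressed neural stem markers (Nes, Sox2, Vim, Fabp7, Msi1 and Prom1) at a mean of 8.89 to 9.21 in hindbrain NSC, 8.46 to 9.42 in the p53 wild-type lines, 7.64 and 7.78 in the p53 het cultures and 7.15 to 7.75 in tissues. Prom1 was the member of that list that averaged below the median gene in NSC and in the p53 het cultures; the median gene of a sample read 4.26 to 4.50. All 7 microglia and macrophage markers averaged below the median gene in every group of cultures, and so did 5 of 6 granule lineage markers, Atoh1, Barhl1, Neurod1, Neurod2 and Mycn. Ptch1, the mutated receptor gene, read 7.99 to 8.62 in hindbrain NSC, 5.72 to 7.75 in the 8 lines, 5.75 and 7.58 in the p53 het cultures and 7.67 to 9.02 in tissues; whether its probe set covers the mutated part was not tested. The p53 gene was not analysed here. The sample names end in a number, and arrays that share it are called arrays of 1 mark, since what it stands for is not stated. Lines 91, 92 and 9 share their mark with line 74, and lines 49, 68, 77 and 83 share another, while the NSC carry 3 further ones.

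The median of the chromosome 6 genes read higher in lines 91, 92 and 9, though not every gene did. The median member differed from hindbrain NSC by 0.51 in line 91, 0.39 in line 92 and 0.42 in line 9. In the other 5 lines it was 0.02 to 0.10, and among the 6 hindbrain cultures themselves the member median varied by 0.023 (SD, n = 6). The 368 other bright genes of chromosome 6 had medians of 0.49, 0.52 and 0.44 in lines 91, 92 and 9, and the 7652 bright genes of other chromosomes -0.02, -0.04 and 0.01. As folds, the member medians were 1.43, 1.31 and 1.34.

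A difference of at least 0.3 was reached by 31 of the 44 members in line 91, 29 in line 92 and 27 in line 9. Over all genes the same difference was reached by 14.6% in line 91, 14.6% in line 92 and 15% in line 9. Among the other bright genes of the chromosome it was reached by 68.2%, 70.7% and 65.8%, so the members sit close to the chromosome as a whole. The other lines had 13 (line 49), 5 (line 68), 12 (line 74), 14 (line 77) and 6 (line 83) such members, against 18.7%, 11%, 14.2%, 15.7% and 15.4% of all genes. In line 91, Emg1 at 0.32 lay just inside the limit and Mlf2 at 0.29 just outside it. The nearest in line 92 were Dctn1 at 0.31 and Snx10 at 0.25, and in line 9 Cops7a at 0.31 and Etv6 at 0.28.

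**Figure D1:**
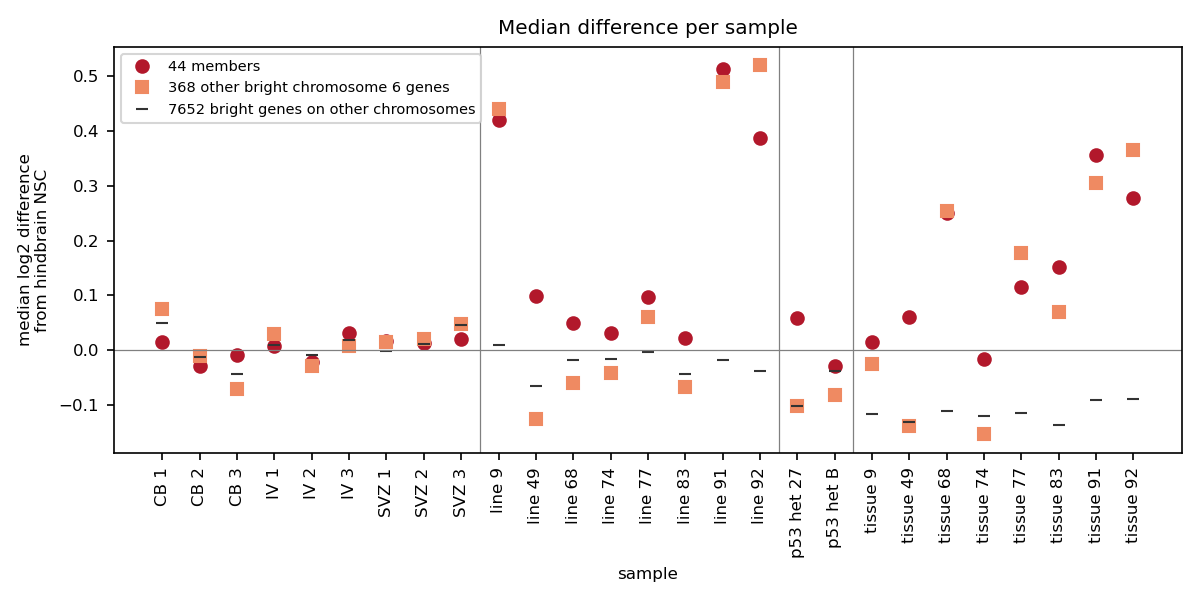
Median log2 difference from the mean of hindbrain NSC (vertical axis) in each of 27 samples (horizontal axis), for the 44 members (circles), the 368 other bright chromosome 6 genes (squares) and 7652 bright genes of other chromosomes (bars). Lines 9, 91 and 92 have member medians of 0.42, 0.51 and 0.39, while the other lines lie at 0.02 to 0.10 and tissues 91, 92 and 68 at 0.36, 0.28 and 0.25.

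The unraised line 74, which shares the mark of the 3 lines, gives the comparison within that mark. Against line 74, a choice of reference made after seeing the data, the member medians were 0.52 in line 91, 0.38 in line 92 and 0.42 in line 9, with 34, 27 and 28 members at 0.3 or more, against 15.4%, 15.5% and 12.4% of all genes. Line 74 was itself near hindbrain NSC, with a member median of 0.03, so these values had to resemble those against hindbrain NSC. The part of the mark in the shift was not tested.

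The shift ran along the whole chromosome. With the 368 other bright genes split into 5 stretches of equal gene number, medians were 0.32 to 0.54 in line 91, 0.40 to 0.62 in line 92 and 0.33 to 0.50 in line 9, with the middle stretch lowest in each of the 3. Line 74 gave -0.13 to 0.00 over the same stretches. Of the 19 other chromosomes, medians in line 92 were -0.12 to 0.05 and in line 9 -0.07 to 0.16. Line 91 had 1 other chromosome past 0.3, chromosome 17 at 0.45. Other lines had shifts of like size elsewhere: chromosome 11 in lines 74 and 77 (0.43 in both), chromosomes 1 and 15 in line 49 (0.50 and 0.32) and chromosome 8 in line 83 (0.36).

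**Figure D2:**
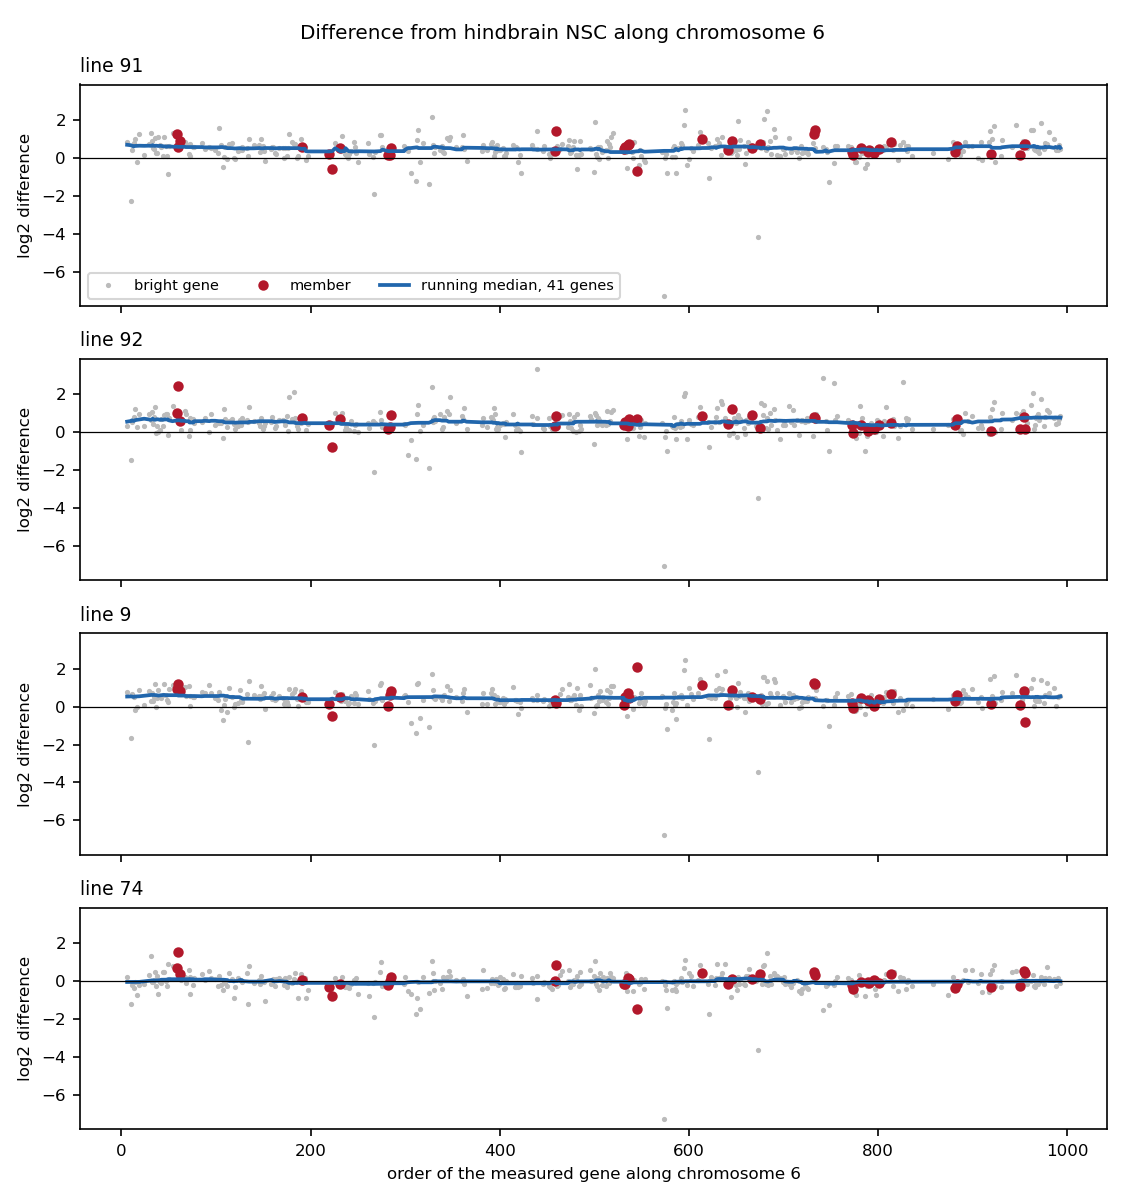
Log2 difference from hindbrain NSC (vertical axis) of every bright gene of chromosome 6 in gene order (horizontal axis) in lines 91, 92, 9 and 74; filled circles are members and the line is a running median over 41 genes. The running median stays above 0 along the chromosome in lines 91, 92 and 9 and lies near 0 in line 74.

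A member was said to follow where it was at least 0.3 above the hindbrain mean and above all 6 hindbrain cultures in each of the 3 lines. It stayed under where at least 2 of the 3 lines were below 0.3, and was mixed otherwise. By this measure 21 members followed, 9 were mixed and 14 stayed under. All genes followed at 5.21%, bright genes of other chromosomes at 5.93% and other bright genes of chromosome 6 at 47.8%. The share of members that followed was therefore near that of their chromosome. Staying under describes 1 probe set a gene: the 4 members of that class with other bright probe sets have 9 of them, of which 8 were at 0.3 or more in at least 2 of the 3 lines. Staying under was seen for 87.2% of all genes and 30.4% of the other bright chromosome 6 genes, and for 83.8% of bright genes elsewhere.

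**Figure D3:**
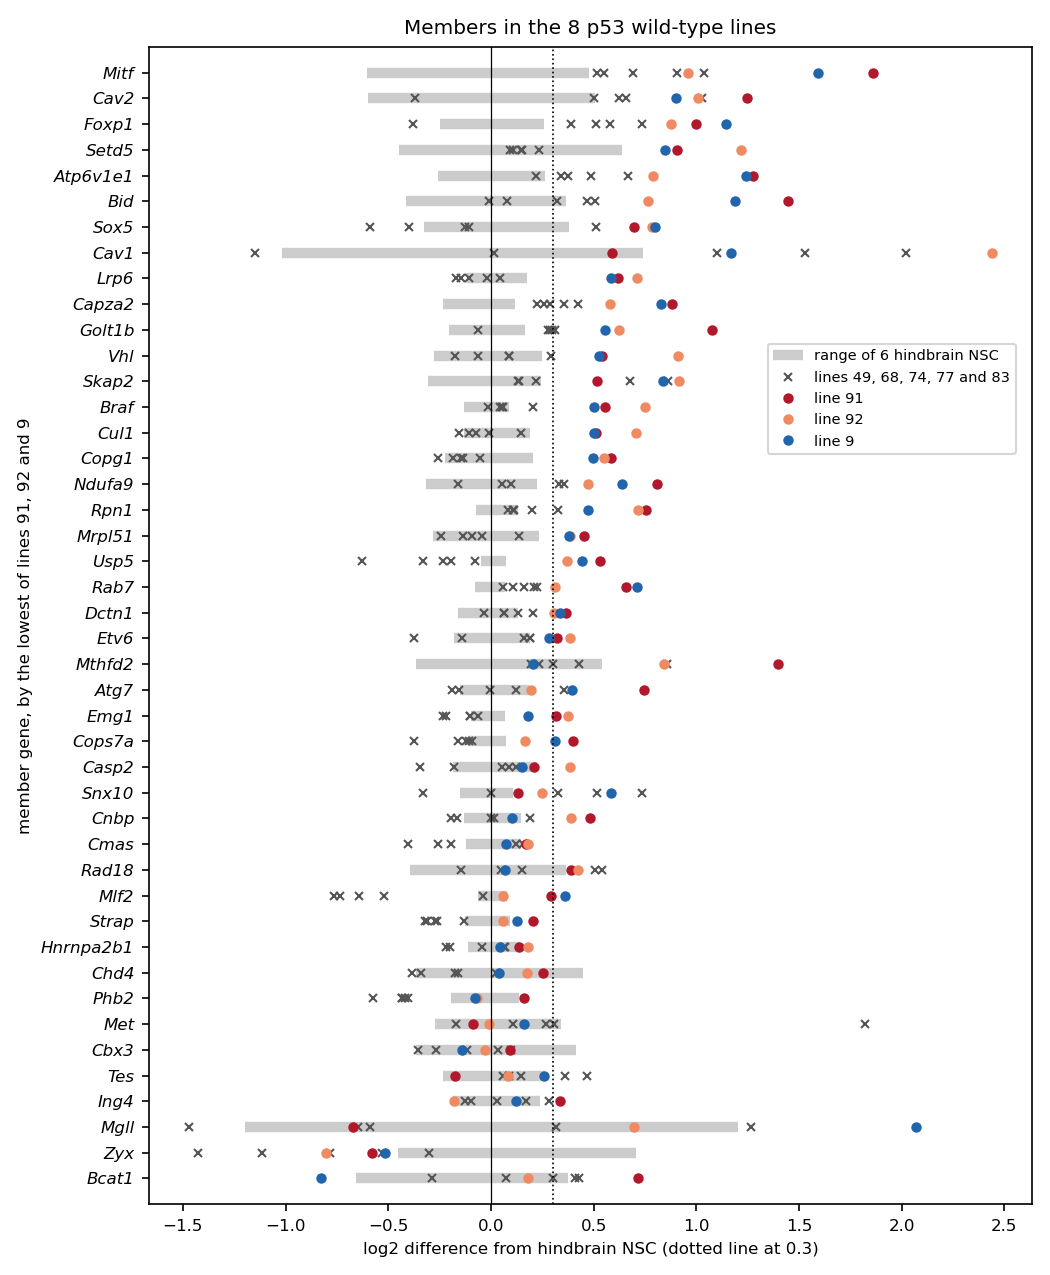
Log2 difference from the hindbrain NSC mean (horizontal axis) of each member (vertical axis) in lines 91, 92 and 9 (coloured circles) and in the other 5 lines (crosses); grey bars span the 6 hindbrain cultures and the dotted line marks 0.3. From Dctn1 upwards, except for Cav1, the circles of all 3 lines lie right of the dotted line and outside the grey bar.

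Among the genes of growth factor and Wnt signalling, Braf, Cav2 and Lrp6 followed, Cav1 was mixed and Met stayed under. Braf, a Raf kinase that passes the Ras signal to MEK, read 6.71, 6.90 and 6.66 in lines 91, 92 and 9, against 6.14 to 6.36 (median 6.21) in the other 5 lines and 6.02 to 6.24 (median 6.18) in hindbrain NSC. The 3 lines lay above every other culture, with differences of 0.55, 0.75 and 0.50. Lrp6, a Wnt co-receptor, read 6.85, 6.95 and 6.82, above the other lines (6.07 to 6.28) and hindbrain NSC (6.12 to 6.41), while the p53 het culture 27 read higher at 7.32.

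Caveolins coat the flask-shaped pits of the plasma membrane, and both genes varied widely between cultures. Cav2 read 9.40, 9.16 and 9.05 in lines 91, 92 and 9, 7.78 to 9.18 (median 8.77) in the other lines and 7.55 to 8.66 in hindbrain NSC. Cav1, its direct neighbour, read 6.12, 7.97 and 6.70, against 4.38 to 7.55 (median 6.63) in the other lines and 4.51 to 6.27 in hindbrain NSC. Cav2 was above hindbrain NSC in the 3 lines but overlapped the other lines at line 49 (9.18), and Cav1 overlapped both sets. Met, the receptor of hepatocyte growth factor, lay at 1.38, 1.46 and 1.63 in the 3 lines, among the dimmest values on the arrays, and below the median gene in all 27 samples. At that level a shift of the chromosome's size may not be detectable.

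Of the genes of the cytoskeleton and adhesion, Capza2, Dctn1 and Skap2 followed, and Tes and Zyx stayed under. Capza2, a subunit of the actin capping protein, read 10.15, 9.85 and 10.10 in lines 91, 92 and 9, above the other lines at 9.49 to 9.69 (median 9.55), which in turn lay above hindbrain NSC at 9.03 to 9.39 (median 9.34). Skap2, an adaptor of Src-family kinases, read 9.11, 9.51 and 9.43, but lines 49 (9.27) and 83 (9.45) reached the same range. Dctn1, the large dynactin subunit that binds microtubules, was 0.37, 0.31 and 0.34 above hindbrain NSC.

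Zyx, a LIM protein of focal adhesions, went the other way. It read 6.56, 6.33 and 6.62 in lines 91, 92 and 9, 5.71 to 6.83 (median 6.35) in the other lines and 6.68 to 7.84 (median 7.05) in hindbrain NSC. The 3 lines were below all 6 hindbrain cultures, with differences of -0.58, -0.80 and -0.52 from their mean, and inside the range of the other lines. Zyx was the only member lower in all 3 lines than every hindbrain culture. Against the median of the 8 lines its differences were 0.10, -0.12 and 0.16, so its direction depended on the reference. Tes, another LIM protein of focal adhesions, was dim, with differences of -0.17, 0.08 and 0.26.

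In the group of cell death, ubiquitin and DNA repair, Bid, Cul1, Vhl and Usp5 followed, Cops7a and Rad18 were mixed and Casp2 stayed under. Bid, a BH3-only protein that links death receptors to mitochondria, read 6.57, 5.89 and 6.31 in lines 91, 92 and 9, 5.11 to 5.63 (median 5.45) in the other lines and 4.71 to 5.49 (median 5.11) in hindbrain NSC. Vhl, the substrate receptor that marks hypoxia-inducible factors for destruction, read 6.72, 7.09 and 6.71, 6.00 to 6.47 (median 6.27) in the other lines and 5.90 to 6.43 in hindbrain NSC. For both genes the 3 lines stood above every other line and every hindbrain culture.

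Casp2, an initiator caspase, read 6.91, 7.09 and 6.85, against 6.35 to 6.82 (median 6.75) in the other lines and 6.52 to 6.92 in hindbrain NSC. Its 3 values were the highest of the 8 lines but 2 of them lay within the hindbrain range. Cul1, the scaffold of SCF ubiquitin ligases, was 0.51, 0.71 and 0.50 above hindbrain NSC, and Usp5, which takes apart unanchored ubiquitin chains, 0.53, 0.37 and 0.45. Cops7a, a subunit of the COP9 signalosome that removes Nedd8 from cullins, differed by 0.40, 0.17 and 0.31. Rad18, the ubiquitin ligase that modifies PCNA at stalled forks, differed by 0.39, 0.42 and 0.07, with lines 49 and 77 higher still at 0.51 and 0.54. Its other bright sets gave 0.61, 0.49 and 0.35, and 0.25, 0.34 and 0.31. In line 49 they gave -0.11 and -0.21, so its high value there rests on 1 set.

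Among chromatin proteins and transcription factors, Setd5, Foxp1, Mitf and Sox5 followed, Etv6 was mixed, and Cbx3, Chd4, Ing4 and Mlf2 stayed under. Mitf, the master factor of melanocytes and a relative of lysosomal gene regulators, read 5.57, 4.67 and 5.30 in lines 91, 92 and 9, 4.22 to 4.75 (median 4.40) in the other lines and 3.10 to 4.18 (median 3.76) in hindbrain NSC. All 8 lines lay above all hindbrain cultures, and line 77 (4.75) above line 92. Foxp1, a forkhead repressor, read 5.77, 5.64 and 5.91, 4.39 to 5.50 (median 5.28) in the other lines and 4.52 to 5.03 in hindbrain NSC.

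Setd5, a SET-domain chromatin protein, differed from hindbrain NSC by 0.90, 1.22 and 0.85 in the 3 lines and by 0.09 to 0.23 in the other 5. Sox5, an SoxD factor of neural and cartilage cells, differed by 0.70, 0.78 and 0.80, with line 74 at 0.51 and the other 4 at -0.59 to -0.11. For both, the 3 lines were the highest of the 8.

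Cbx3, which encodes heterochromatin protein 1 gamma, read 4.65, 4.53 and 4.41 in the 3 lines, 4.20 to 4.65 in the other lines and 4.19 to 4.97 in hindbrain NSC, with full overlap at a dim level. Chd4, the ATPase of the NuRD complex, differed by 0.26, 0.18 and 0.04, and Ing4, a reader of methylated histone H3 in acetyltransferase complexes, by 0.34, -0.18 and 0.12. Etv6, an ETS repressor, differed by 0.32, 0.38 and 0.28, which left line 9 just under the limit. Mlf2 differed by 0.29, 0.06 and 0.36 while lines 49, 68, 77 and 83 lay at -0.76 to -0.52 and line 74 at -0.04.

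By the probe set that stands for each, none of the 4 genes of RNA and ribosome assembly followed. Emg1 and Cnbp were mixed, and Hnrnpa2b1 and Strap stayed under. Other bright sets of Hnrnpa2b1 and Strap read higher, as given below. Emg1, a methyltransferase of the small ribosomal subunit's RNA, read 9.38, 9.44 and 9.24 in lines 91, 92 and 9, 8.83 to 9.002 (median 8.96) in the other lines and 8.97 to 9.13 (median 9.07) in hindbrain NSC. Its 3 values stood above every other line and hindbrain culture, but by only 0.18 over the hindbrain mean in line 9. Cnbp, a zinc-finger protein that binds single-stranded nucleic acids, read 10.81, 10.72 and 10.43, with line 83 (10.52) above line 9 and hindbrain NSC at 10.20 to 10.48.

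Strap, a partner of the SMN complex in building splicing particles, read 9.15, 9.001 and 9.07, against 8.62 to 8.81 (median 8.67) in the other lines and 8.82 to 9.03 in hindbrain NSC. The 3 lines were the highest of the 8 for Strap, yet within 0.21 of the hindbrain mean. Hnrnpa2b1, an abundant splicing and RNA transport protein, differed by 0.14, 0.18 and 0.04.

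In the group of membrane traffic and autophagy, Rab7, Copg1, Golt1b, Rpn1 and Atp6v1e1 followed, Atg7 was mixed and Snx10 stayed under. Atp6v1e1, a stalk subunit of the proton pump that acidifies lysosomes, read 9.58, 9.09 and 9.54 in lines 91, 92 and 9, 8.52 to 8.97 (median 8.68) in the other lines and 8.05 to 8.56 (median 8.36) in hindbrain NSC. The 3 lines stood above the other 5, and 4 of those 5 above every hindbrain culture. Golt1b, a Golgi membrane protein of vesicle transport, read 5.44, 4.99 and 4.92, 4.30 to 4.68 (median 4.66) in the other lines and 4.17 to 4.54 in hindbrain NSC, all dim.

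Rpn1, a subunit of the oligosaccharyltransferase that adds sugars to new proteins, differed by 0.75, 0.72 and 0.47. Rab7, the GTPase of late endosomes, differed by 0.66, 0.31 and 0.71, and Copg1, a coat subunit of Golgi vesicles, by 0.58, 0.55 and 0.50. Atg7, the activating enzyme of autophagy conjugation, differed by 0.74, 0.20 and 0.39. Snx10, a sorting nexin of endosomes, read 5.95, 6.07 and 6.40, inside the range of the other lines (5.48 to 6.55, median 6.14), and line 49 (6.55) was the highest.

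In metabolism and mitochondria, Ndufa9 and Mrpl51 followed, Mgll and Mthfd2 were mixed, and Cmas, Bcat1 and Phb2 stayed under. Ndufa9, a subunit of respiratory complex I, read 9.89, 9.55 and 9.72 in lines 91, 92 and 9, 8.92 to 9.44 (median 9.17) in the other lines and 8.76 to 9.30 (median 9.12) in hindbrain NSC. Mrpl51, a protein of the large mitochondrial ribosome, read 9.13, 9.07 and 9.06, 8.43 to 8.81 (median 8.59) in the other lines and 8.40 to 8.91 in hindbrain NSC. Neither gene's 3 values overlapped the other lines or hindbrain NSC.

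Phb2, a prohibitin of the inner mitochondrial membrane, read 9.28, 9.05 and 9.04, inside the hindbrain range of 8.92 to 9.25 except for line 91. By the probe set used, the other 5 lines read lower, at 8.54 to 8.71 (median 8.68), and did not overlap hindbrain NSC or the 3 lines. Cmas, which activates sialic acid, differed by 0.17, 0.18 and 0.07.

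The metabolic enzymes Mgll, Bcat1 and Mthfd2 differed widely between the 3 lines. Mgll, which hydrolyses monoacylglycerols, read 3.90, 5.26 and 6.64 in lines 91, 92 and 9, 3.10 to 5.83 in the other lines and 3.37 to 5.77 in hindbrain NSC, so that lines 91 and 92 lay within the hindbrain range and line 9 above it. Bcat1, the cytosolic transaminase of branched-chain amino acids, differed by 0.72, 0.18 and -0.83, and Mthfd2, a mitochondrial folate enzyme, by 1.40, 0.84 and 0.21. For these genes the differences between the 3 lines were larger than the chromosome median.

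**Figure D4:**
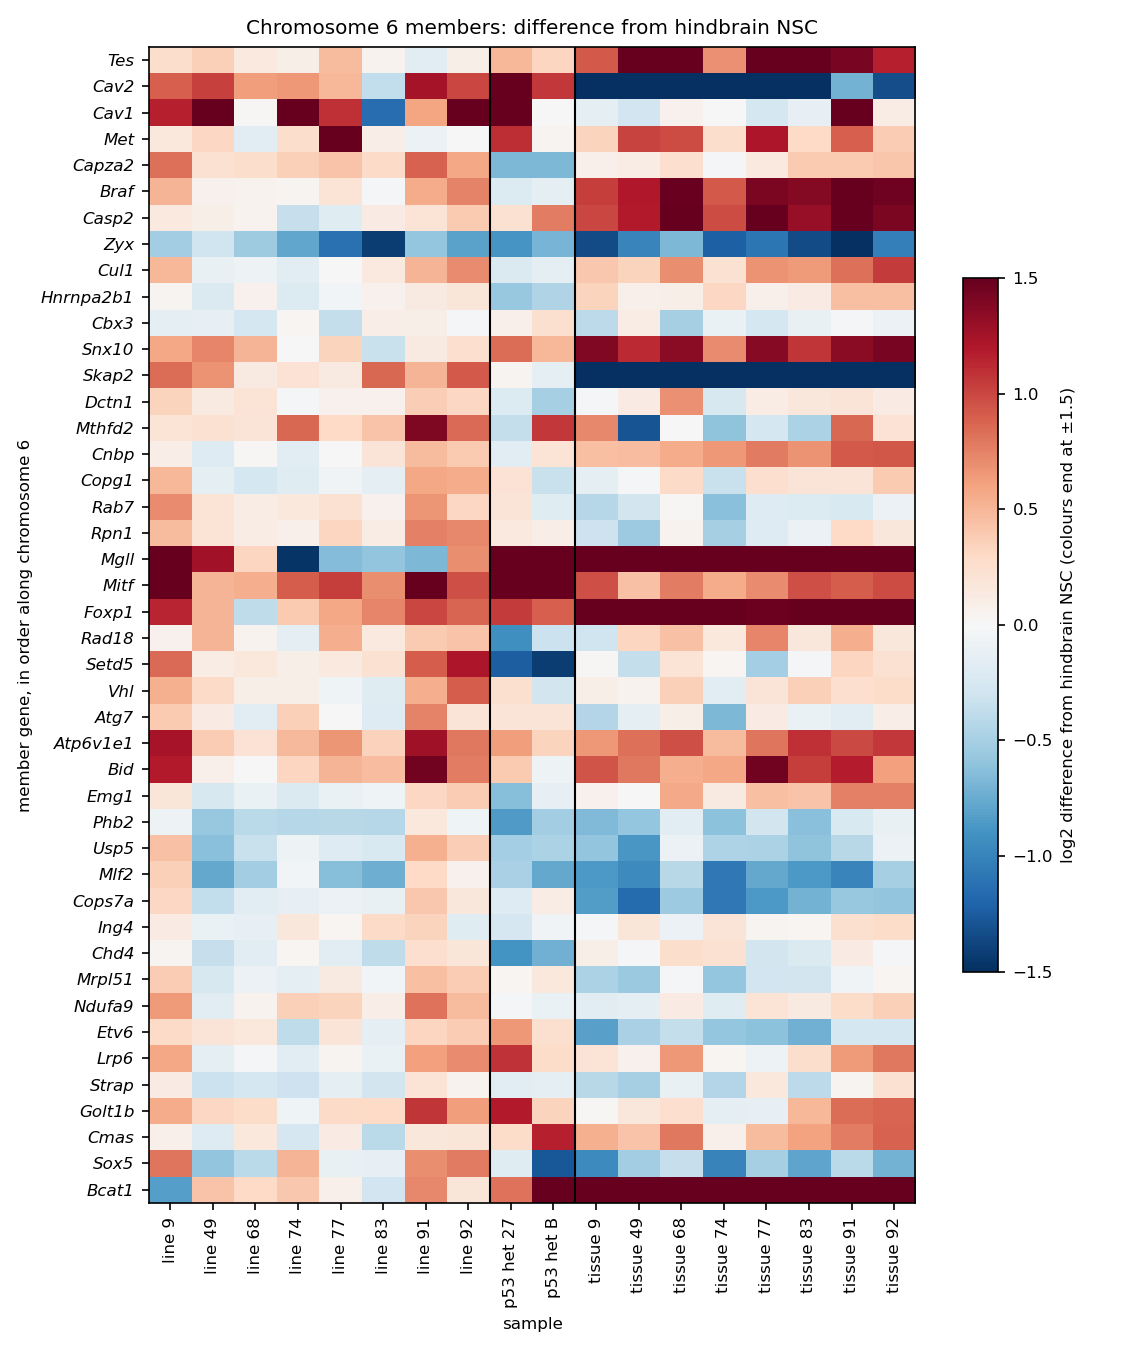
Log2 difference from the hindbrain NSC mean (colour, ending at ±1.5) of the 44 members in chromosome order (vertical axis) in 8 p53 wild-type lines, 2 p53 het cultures and 8 tissues (horizontal axis). Columns of lines 9, 91 and 92 are mostly red with Zyx blue, while tissues show mixed large differences such as Skap2 low and Mgll high in all 8.

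The 3 lines were also set against the other lines. All 3 lay above each of the other 5 in 26 of the 44 members, or 59.1%. The same order held for 4.38% of all genes, for 65.2% of the other bright chromosome 6 genes and for 4.51% of bright genes elsewhere. Both orders, above the other 5 lines and above the 6 hindbrain cultures, held for 21 members (47.7%) and for 48.9% of the other bright genes of the chromosome.

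Which genes were said to follow depended on the reference. Against the median of the 8 lines, in which the 3 lines take part, 11 members followed, 14 were mixed and 19 stayed under. At least 0.3 above that median were 29 members in line 91 (9.61% of all genes), 19 in line 92 (9.54%) and 20 in line 9 (9.05%). Only 1.25% of all genes and 32.1% of the other bright chromosome 6 genes followed by that measure, and 0.588% of bright genes elsewhere. The 9 members that followed by both measures were Braf, Lrp6, Cul1, Vhl, Usp5, Setd5, Sox5, Copg1 and Mrpl51. A further 11 stayed under by both, namely Met, Tes, Cbx3 and Ing4, all dim, and Zyx, Casp2, Chd4, Hnrnpa2b1, Snx10, Cmas and Bcat1.

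Mlf2 and Phb2 stayed under against hindbrain NSC and followed against the lines. Mlf2 was 0.57, 0.34 and 0.64 above the median of the 8 lines in lines 91, 92 and 9, and Phb2 0.57, 0.34 and 0.33 above it. By the sets used, both read lower in most other lines than in hindbrain NSC. For Phb2 the size of this depended on the set. Its brightest other set gave -0.32 to -0.18 in the other 5 lines, the next -0.22 to 0.14 and the last -0.65 to 0.13. Cav2, Dctn1, Skap2 and Ndufa9 went the other way, followed against hindbrain NSC and stayed under against the lines. Against line 74, 21 members followed, 10 were mixed and 13 stayed under.

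Of the 44 members, 19 have at least 1 other bright probe set. For the 9 of them that followed, 13 of 16 other sets were at 0.3 or more in all 3 lines, among them every other bright set of Braf, Capza2, Foxp1, Sox5, Rab7 and Rpn1. The second Copg1 set gave 0.20, 0.08 and 0.13 in lines 91, 92 and 9, and that of Dctn1 0.37, 0.02 and 0.23. That of Skap2 gave 0.16, 0.73 and 0.77. Copg1, Dctn1 and Skap2 thus did not follow by their second set. The 6 mixed members with other bright sets have 7 of them. Of these 7, 1 was at 0.3 or more in all 3 lines, 4 in 2 lines and 2 in at most 1.

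The 4 members that stayed under and have other bright sets were Hnrnpa2b1, Chd4, Strap and Phb2, and by most of those sets none of them stayed under. The brightest other set of Hnrnpa2b1 gave 0.33, 0.48 and 0.38 in lines 91, 92 and 9, and its further 2 were also at 0.3 or more in all 3 lines. The other Chd4 set gave 0.76, 0.88 and 0.17. The second Strap set gave 0.39, 0.22 and 0.39, and the third 0.74, 0.83 and 0.71. Phb2 has 3 others: 1 gave 0.18, 0.03 and -0.06, the next 0.60, 0.43 and 0.23 and the last 0.37, 0.50 and 0.08. Which set measures the gene best was not tested, so whether these 4 genes stayed under cannot be said from the arrays.

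The median shift was of like size in the 3 classes of signal, although the lowest class also holds the dimmest members Met, Tes, Ing4 and Cbx3, none of which followed. With the members split into 3 classes by mean level, the medians in line 91 were 0.39, 0.53 and 0.47 from the lowest class to the highest. In line 92 they were 0.42, 0.55 and 0.38, and in line 9 0.53, 0.45 and 0.37.

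Some neighbours on the chromosome differed from each other and others were alike. Snx10, at 0.13, 0.25 and 0.58 in lines 91, 92 and 9, lies directly beside Skap2, at 0.52, 0.92 and 0.84. The other bright set of Skap2 gave 0.16, 0.73 and 0.77, so in line 91 the contrast rests on 1 set. Atp6v1e1, at 1.27, 0.79 and 1.24, lies 1 measured gene from Bid, at 1.44, 0.76 and 1.19. Cav2, Cav1, Met and Capza2 follow one another with no measured gene between them, but Met is too dim to be set against the rest. Further along, Cnbp, Copg1, Rab7 and Rpn1 gave 0.10 to 0.75 over the 3 lines. Mgll lies 7 measured genes beyond Rpn1 and gave -0.67, 0.69 and 2.07.

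Emg1 and Phb2 are read in opposite directions from start sites 111 bases apart, so that their promoter windows share 210 bases. Around this shared start Emg1 differed by 0.32, 0.38 and 0.18 and Phb2 by 0.16, -0.07 and -0.08 in lines 91, 92 and 9, although another Phb2 set gave 0.60, 0.43 and 0.23. The windows are shown with those of Rpn1, which followed, and of Mgll, which was mixed, because these are neighbours or near neighbours whose probe sets gave unlike values. Each runs from 250 bases before to 50 bases after the start (RefSeq, GRCm38.p6), 5′ to 3′ on the gene's strand, with each CpG, the site of DNA methylation, in capitals.
Emg1, chr6:124712129-124712428, minus strand: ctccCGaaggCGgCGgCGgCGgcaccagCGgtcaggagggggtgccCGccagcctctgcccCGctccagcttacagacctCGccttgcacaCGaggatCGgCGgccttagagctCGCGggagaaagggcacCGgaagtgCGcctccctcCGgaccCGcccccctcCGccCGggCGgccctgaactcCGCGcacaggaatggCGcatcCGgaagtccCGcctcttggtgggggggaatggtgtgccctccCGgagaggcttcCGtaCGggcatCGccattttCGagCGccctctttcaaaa
Phb2, chr6:124712039-124712338, plus strand: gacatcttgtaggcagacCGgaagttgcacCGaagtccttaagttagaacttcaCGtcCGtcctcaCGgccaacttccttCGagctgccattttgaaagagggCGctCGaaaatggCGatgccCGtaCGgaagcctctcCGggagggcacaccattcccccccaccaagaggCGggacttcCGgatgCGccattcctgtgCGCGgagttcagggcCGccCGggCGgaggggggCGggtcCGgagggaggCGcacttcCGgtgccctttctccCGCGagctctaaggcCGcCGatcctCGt
Rpn1, chr6:88084223-88084522, plus strand: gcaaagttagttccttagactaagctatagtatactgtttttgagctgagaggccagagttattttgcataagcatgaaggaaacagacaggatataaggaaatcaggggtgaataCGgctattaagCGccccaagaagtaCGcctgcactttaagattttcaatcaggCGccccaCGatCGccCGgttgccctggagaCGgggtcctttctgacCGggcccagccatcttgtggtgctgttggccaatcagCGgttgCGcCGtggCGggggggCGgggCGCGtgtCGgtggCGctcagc
Mgll, chr6:88724162-88724461, plus strand: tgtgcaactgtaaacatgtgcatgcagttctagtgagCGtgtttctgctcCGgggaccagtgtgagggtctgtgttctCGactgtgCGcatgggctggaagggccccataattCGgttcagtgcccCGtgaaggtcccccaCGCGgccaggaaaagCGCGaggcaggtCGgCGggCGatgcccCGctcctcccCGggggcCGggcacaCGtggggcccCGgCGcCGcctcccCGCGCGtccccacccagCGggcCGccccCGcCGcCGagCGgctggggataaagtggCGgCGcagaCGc

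Emg1 holds 32 CpG in its window, Phb2 29, Rpn1 18 and Mgll 32. Promoter windows matched for 42 of the 44 members, and 31 of them (73.8%) were CpG-rich, meaning a GC content of at least 50% and an observed over expected CpG ratio of at least 0.6. Of all promoters of the chromosome 40.3% were CpG-rich, and of those of its other bright genes 72.2%. The share was 68.4% for members that followed, 77.8% for mixed ones and 78.6% for those that stayed under. Promoters of this kind were thus common in each class.

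Partners of the members were taken from lists of their complexes and pathways, and growth genes of chromosome 6 were listed beside them. Of 172 listed partners on other chromosomes, 27 were at 0.3 or more in line 91, 18 in line 92 and 26 in line 9, with medians of 0.03, -0.10 and 0.00. Over all genes the shares were 14.6%, 14.6% and 15%. The lists were not alike: in line 9, 4 of the 9 autophagy partners reached 0.3, with a median of 0.28. Of 16 listed genes on chromosome 6 that are no members, 10, 11 and 12 reached 0.3, with medians of 0.46, 0.47 and 0.43. Of these 16, 9 come from the list of growth genes, which was drawn up from this chromosome. Those 9 had medians of 0.20, 0.41 and 0.32. Copg2, the other gamma subunit of the Golgi coat and also on chromosome 6, differed by 0.99, 1.31 and 1.35. Copg2 was also higher than in hindbrain NSC in the other lines, by 0.30 to 0.92, and in the p53 het cultures, by 0.54 and 0.97. Against the median of the 8 lines, Copg2 differed by 0.15, 0.47 and 0.52 in lines 91, 92 and 9. The 7 coat subunits on other chromosomes had medians of -0.06, 0.07 and 0.01 against hindbrain NSC.

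Of complex I, the 3 subunits on chromosome 6 (Ndufa4, Ndufa5 and Ndufb2) had medians of 0.78, 0.47 and 0.75 in lines 91, 92 and 9. The 26 subunits elsewhere had medians of 0.09, -0.16 and 0.05. Of the proton pump's 13 subunits on other chromosomes, 10 reached 0.3 in line 9, 5 in line 91 and 2 in line 92. Line 74 had 7 and line 77 had 6, without the chromosome 6 shift, and lines 49, 68 and 83 had 3, 1 and 1.

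Among growth genes of chromosome 6, Cdkn1b, an inhibitor of cyclin-dependent kinases, differed by 0.84, 1.02 and 0.64, and Ezh2, the Polycomb methyltransferase, by 0.34, 0.51 and 0.32. Smo, the signal transducer that Ptch1 restrains, differed by -0.01, 0.41 and -0.01, and Ccnd2, a cyclin of hedgehog-driven growth, by -0.10, -0.30 and -0.31.

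The matched tissues carried the chromosome 6 shift in part. Tissue differs from a culture in its cells: granule lineage markers averaged 8.26 to 8.72 in tissues and at most 3.94 in the lines, mature neuron markers 7.19 to 8.35 against at most 3.98, and the 7 microglia and macrophage markers 5.33 to 6.47 against at most 1.97. Of the 6 endothelial markers, 5 averaged below the median gene in tissues (all but Cldn5). The part of these cells in the values that follow was not tested. In such bulk samples fewer cells of a type and less RNA per cell cannot be told apart.

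Against hindbrain NSC the member medians in tissues were 0.36 in tissue 91, 0.28 in tissue 92, 0.25 in tissue 68, 0.15 in tissue 83, 0.12 in tissue 77, 0.06 in tissue 49, 0.01 in tissue 9 and -0.02 in tissue 74. At least 0.3 above hindbrain NSC were 23 members in tissue 91 (23.6% of all genes), 21 in tissue 92 (23.3%), 19 in tissue 68 (23.2%), 18 in tissue 83 (23.5%), 16 in tissue 77 (23.4%), 16 in tissue 9 (22.5%), 15 in tissue 49 (23.9%) and 12 in tissue 74 (20.9%). Some members differed far more, and alike in all 8. Mgll read 7.10 to 7.65 (median 7.32) in tissues, above every hindbrain culture, and Skap2 4.14 to 5.33 (median 4.92), below every one. Braf read 7.07 to 7.83 (median 7.55) in tissues, also above all cultures of any kind.

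The median of the 8 tissues is the reference of the same kind. Tissues with high chromosome 6 values take part in it. Against hindbrain NSC, chromosome 6 had the highest chromosome median in tissues 68, 77, 83, 91 and 92, at 0.25, 0.17, 0.07, 0.31 and 0.35. A value near 0 against the 8 tissues therefore does not show an unraised chromosome. Against the 8-tissue median, the other bright chromosome 6 genes had medians of 0.26 in tissue 92, 0.20 in tissue 91, 0.11 in tissue 68, 0.03 in tissue 77, -0.01 in tissue 83, -0.11 in tissue 9, -0.23 in tissue 49 and -0.29 in tissue 74. Other chromosomes lay at -0.07 to 0.12 in all 8 tissues, apart from chromosome 17 in tissue 91 (0.40) and chromosome 14 in tissue 49 (0.17). Chromosome 17 also stood out in line 91.

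At least 0.3 above the 8-tissue median were 12 members in tissue 91 (9.46% of all genes), 13 in tissue 92 (6.58%), 8 in tissue 68 (8.88%), 4 in tissue 77 (6.79%), 2 in tissue 49 (9.85%), 2 in tissue 83 (9.31%), 1 in tissue 9 (7.47%) and 0 in tissue 74 (3.97%). Members past it in both tissues 91 and 92 were Cav2, Lrp6, Strap, Emg1, Golt1b, Rpn1 and Mthfd2. Lrp6 gave 0.40 and 0.55 there, Rpn1 0.44 and 0.32, and Emg1 0.32 in both.

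Tumours 9 and 68 were the pairs in which line and tissue parted most. Line minus tissue, the other bright chromosome 6 genes had a median of 0.48 in tumour 9 and -0.34 in tumour 68, and the members 0.49 and -0.24. The other 6 tumours lay at -0.17 to 0.13 for the chromosome. Bright genes of other chromosomes lay at 0.04 to 0.12 in the 8 tumours by the same measure. Chromosome 6 thus also lay below the others in tumours 83 (-0.17 against 0.10) and 77 (-0.10 against 0.11). Line 9 and tissue 9 share a mark, and so do the lines and tissues of tumours 74, 91 and 92, whereas line 68 and tissue 68 do not.

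**Figure D5:**
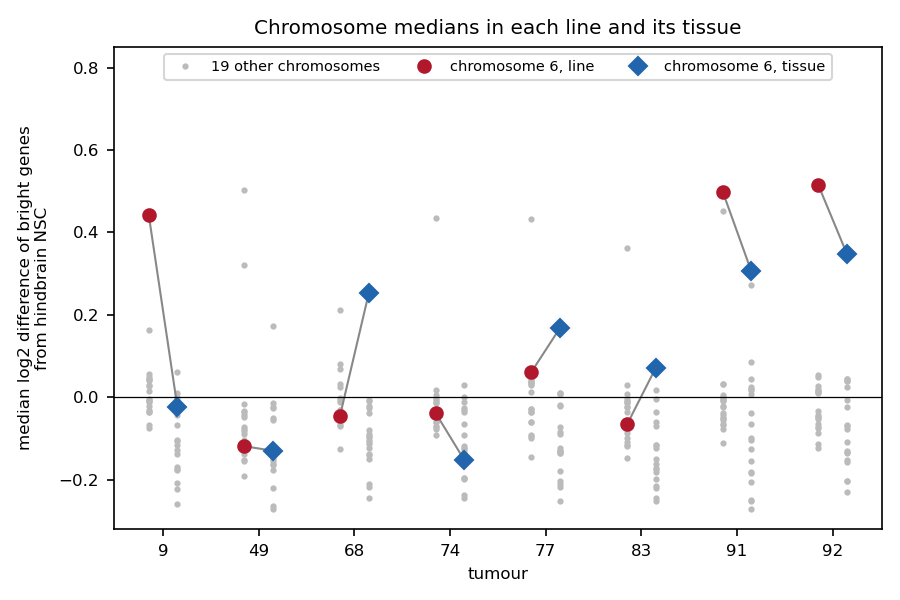
Median log2 difference from hindbrain NSC of the bright genes of each chromosome (vertical axis) in the line (left of each pair) and tissue (right) of 8 tumours (horizontal axis); circles and diamonds are chromosome 6, small dots the 19 other chromosomes. Chromosome 6 is high in line and tissue of tumours 91 and 92, in the line but not the tissue of tumour 9 and in the tissue but not the line of tumour 68. In tumour 77 it lies at 0.17 in the tissue and 0.06 in the line.

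The CSC of Ptch het p53 het mice did not take part in choosing the members, although their controls did. Their chromosome 6 medians were close to hindbrain NSC, at -0.10 in culture 27 and -0.08 in culture B over the other bright genes, and the member medians were 0.06 and -0.03. A difference of at least 0.3 was reached by 14 members in culture 27 (23.6% of all genes) and 12 in culture B (23.1%). Of the 44 members, 17 were called by limma over all 18194 genes (adjusted p under 0.05), 10 higher and 7 lower, against 26.8% of all genes, 13.8% higher and 13% lower. At an unadjusted p under 0.05 there were 23 members.

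Mitf read 6.62 and 6.27 in cultures 27 and B, above its hindbrain range of 3.10 to 4.18, a difference of 2.74 ± 0.35 (SE) with an adjusted p of 1.4e-05 in limma. Mgll read 8.79 and 7.58 against 3.37 to 5.77, a difference of 3.61 ± 0.78 (limma adjusted p = 0.0020). Cav2 read 10.39 and 9.21 against 7.55 to 8.66, a difference of 1.65 ± 0.37 (limma adjusted p = 0.0025). For all 3 genes, neither culture overlapped hindbrain NSC.

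Cmas read 7.56 and 8.46 against 7.16 to 7.43 (0.72 ± 0.19, limma adjusted p = 0.0087), with culture B far above culture 27. Bcat1 read 6.55 and 7.44 against 5.07 to 6.11 (1.26 ± 0.34, limma adjusted p = 0.010). Foxp1 read 5.81 and 5.67 against 4.52 to 5.03 (0.97 ± 0.28, limma adjusted p = 0.015). Casp2, Golt1b, Lrp6 and Snx10 were the other members called higher.

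Lower members included genes that followed or stayed under in the p53 wild-type lines. Hnrnpa2b1 read 10.09 and 10.21 in cultures 27 and B against 10.54 to 10.80 in hindbrain NSC (-0.50 ± 0.11, limma adjusted p = 0.0021). Chd4 read 6.81 and 6.97 against 7.33 to 8.15 (-0.81 ± 0.19, limma adjusted p = 0.0040). Both cultures lay below every hindbrain culture for these 2 genes.

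Capza2, which followed in lines 91, 92 and 9, read 8.59 and 8.60 against 9.03 to 9.39 (-0.67 ± 0.16, limma adjusted p = 0.0049). Phb2 read 8.26 and 8.60 against 8.92 to 9.25 (-0.68 ± 0.17, limma adjusted p = 0.0053). Setd5 read 6.05 and 5.86 against 6.84 to 7.92 (-1.33 ± 0.33, limma adjusted p = 0.0058), with both cultures below the range. Dctn1 (-0.35 ± 0.11, limma adjusted p = 0.029) and Rad18 were the other lower members, and Rad18 overlapped hindbrain NSC.

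Some calls rested on 1 tumour: 9 members were called without tumour 27 and 13 without tumour B, and 11 with the mean of a gene's probe sets. Mitf, Mgll, Hnrnpa2b1 and Capza2 were called whichever tumour was left out; the 1 culture then left is assumed to vary like the other groups. With the mean of probe sets, Capza2, Chd4, Foxp1, Golt1b, Phb2, Rad18, Setd5 and Snx10 were no longer called. The p53 het cultures also differed in markers, with neural stem markers lower (7.64 and 7.78) and fibroblast and mural markers at 2.44 and 3.76, against 1.75 to 1.99 in hindbrain NSC. Of those 6 markers, 5 averaged below the median gene (all but Col3a1), and their part in the differences was not tested.

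Between the NSC regions no member was called by limma: 0 of 44 for IV ventricle against SVZ (0.764% of all genes), 0 for cerebellum against SVZ (1.1%) and 0 for IV ventricle against cerebellum (0%). At an unadjusted p under 0.05 there were 4, 5 and 0. Same-numbered cultures deviated together for SVZ with both hindbrain regions, but not for IV ventricle with cerebellum. The labels do not say that a number marks a shared animal or day. In cerebellum and SVZ only culture 3 carries another mark, so number and mark partly coincide. With the number as a block, 1 member was called for IV ventricle against SVZ and 2 for cerebellum against SVZ.

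Skap2 was the member with the clearest regional difference. It read 7.68, 7.04 and 7.92 in the 3 SVZ cultures and 8.29 to 8.84 in hindbrain NSC, with no overlap. IV ventricle exceeded SVZ by 1.06 ± 0.21 (limma adjusted p = 0.070, and 0.020 with the block), and cerebellum exceeded it by 1.04 ± 0.21 (limma adjusted p = 0.061, and 0.020 with the block). Bid read 4.39 to 4.66 in SVZ and 4.71 to 5.49 in hindbrain NSC, and cerebellum exceeded SVZ by 0.69 ± 0.16 (limma adjusted p = 0.088, and 0.044 with the block). Both genes followed in lines 91, 92 and 9.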

How the data were processed

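Values are log2 intensities per probe set that the authors deposited, made with RMA per the submitters' processing notes; the array annotation's genome build is not given in the sources used here. They ran from 0.417 to 12.9 and were used as deposited. Of 45101 probe sets, 34958 carried 1 gene symbol, 932 several and 9211 none in the probe table; only the first kind was used. For a gene with several probe sets, the brightest one on average across the 31 arrays stood for it, and chromosome and gene order came from RefSeq (GRCm38.p6). Technical arrays of each p53 het tumour were averaged. The number of arrays limits the precision, and nothing says that cultures came from separate animals, so p-values measure the spread between these samples.

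The members, their roles and the partner lists were chosen with earlier results of these data known. Lines and tissues were described by differences from hindbrain NSC, with both regions weighted alike. Every test is two-sided and comes from limma (version 3.58.1, under R 4.3.3), with Benjamini-Hochberg adjustment over all genes: 19 cultures in 1 fit for tumour cultures, 9 NSC in another. Tests of p53 wild-type lines against hindbrain NSC and against tissue were planned but are not reported, because the members were chosen on these contrasts. The fit was tested on simulated data with independent noise for each gene and culture. That simulation held no shared deviation by mark or replicate number, so it cannot speak to these. Same-numbered cultures deviated together for SVZ with IV ventricle (r = 0.254 to 0.324) and with cerebellum (0.175 to 0.341), but not for IV ventricle with cerebellum (-0.138 to 0.377). Genes with full values were, in each role, the 2 highest by the lowest of lines 91, 92 and 9 and the 1 lowest by their middle value, plus Braf and Met; up to 6 called members a direction were given for the tests. Others were chosen after their values were seen. A likeness measure across cultures was not used, since the cultures fall into separate clusters.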

Additional observations from a re-analysis of the deposited data

Results flagged for a closer look

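Each member was examined in the 8 lines and the 8 tissues for a sample far from the rest, 88 tests in all, of which chance gives about 1 in 20; 4 stood out. Met, the receptor of hepatocyte growth factor, read 3.29 in line 77 and 1.30 to 1.77 in the other 7 lines, all below the median gene of a sample. Cav1 read 7.34 in tissue 91 and 5.24 to 5.64 in the other tissues. Cav2 read 7.78 in line 83, below the 8.65 to 9.40 of the other lines. Dctn1 read 8.85 in tissue 68 and 7.94 to 8.36 in the other tissues.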

How the results depend on the processing

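With the median of the 8 lines as reference, chosen for these values after seeing the data, the member medians of lines 49, 68, 74, 77 and 83 turned negative, at -0.10, -0.12, -0.10, -0.028 and -0.11, and Zyx turned positive in lines 91 (0.10) and 9 (0.16). With the median of the 8 tissues, also chosen after, those of tissues 9, 49 and 83 turned negative, at -0.17, -0.14 and -0.0040. That median includes the tissues in which chromosome 6 read high. Called genes kept their direction under every alternative run. The cause of the changes below was not tested. Members called in p53 het CSC numbered 11 with the mean of all probe sets (9 higher, 2 lower) and 9 to 16 with 1 culture left out. IV ventricle against SVZ gave 1 called member with array medians subtracted, with the replicate block and with the mark as a block, and 0 to 1 with 1 culture left out. Cerebellum against SVZ gave 1, 2 and 4 under these settings and 0 to 1 with 1 culture left out. The call gained without IV ventricle culture 2 in the first and without SVZ culture 3 in the second was Skap2. IV ventricle against cerebellum gave 0 throughout. Member medians became 0.61 (line 91) and 0.43 (line 92) with array medians subtracted, 0.42 (92) and 0.39 (9) with bright genes of other chromosomes centred, 0.37 (9) with mean probe sets, 0.43 (92) against cerebellar NSC, 0.49, 0.36 and 0.32 (91, 92, 9) against SVZ NSC, and 0.42, 0.26 and 0.28 against the 8-line median, where line 92 had 19 members past 0.3. With bright members only, an alternative chosen after seeing the data, line 9 gave 0.46. With 1 hindbrain culture left out the medians were 0.47 to 0.52, 0.38 to 0.42 and 0.40 to 0.44, with 30 to 32, 27 to 29 and 27 to 29 members past 0.3. Against the 8-tissue median the counts in tissues 9, 49, 68, 74, 77, 83, 91 and 92 fell from 16, 15, 19, 12, 16, 18, 23 and 21 to 1, 2, 8, 0, 4, 2, 12 and 13. Of 376 values for single genes, 304 kept their side of the threshold, 49 lost a call and 23 gained one. Dim members (6 of 44) have little signal over background, so a shift in them may not be detectable.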
